A study of Mus musculus with 10 samples.

Results

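The distal colon of aged mice fed yogurt was compared with that of mice fed the same diet without yogurt. The comparison rests on 2 of the 10 arrays in the series, those labelled distal colon, with 1 pool of RNA for each diet. The remaining 8 arrays hold jejunum, ileum, liver and spleen of the same mice, again with 1 pool per diet in each tissue. All mice were ICR males, an outbred stock, kept singly under specific-pathogen-free conditions and sampled at 28 months of age. Both groups ate the purified AIN-93 diet, and from 8 months of age the diet of the yogurt group held 1 to 2% LB81 yogurt, a milk fermented with lactic acid bacteria. RNA was extracted from each mouse, and the 10 yogurt-fed and the 9 control mice each gave a pool made of equal amounts. From each pool, 100 ng was labelled and hybridised to an Affymetrix whole-genome mouse array with a 3′-based amplification kit. The differences between mice were therefore averaged out before the measurement, and each diet has a single value in the tissue. No p-value can be given for the diet within the colon, and "higher" and "lower" below compare 1 pool with 1 pool.

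The colon epithelium is renewed from crypts and consists mainly of absorptive colonocytes and mucus-secreting goblet cells, with scattered hormone-producing and tuft cells. It takes up salt, water and short chain fatty acids, and it keeps the dense luminal bacteria at a distance with mucus, glycans and secreted antibacterial proteins. Paneth cells and lipid-absorbing enterocytes, by contrast, belong to the small intestine. A sample of colon wall also holds smooth muscle, connective tissue, immune cells and, outside, fat, so fewer cells of a type and less RNA per cell cannot be told apart in it.

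Values are the deposited log2 levels, compared as yogurt minus control on the log2 scale, called the ratio. Levels below the median of an array, 5.48 for yogurt and 5.49 for control colon, were treated as not above background and raised to that floor before the ratio was taken. Set against such a value, a ratio can only be bounded from below, and it is written as at least so many fold. Of 18193 genes with a probe set of their own, 12369 were measured in the distal colon, meaning above the floor on at least 1 of its arrays, and 11971 were above it on both. The 168 genes above it in the yogurt pool alone and the 230 in the control pool alone could differ almost only toward that pool. This holds for members of the lists below too. Over all probe sets the colon arrays had a Spearman correlation of 0.994, within the range of 0.991 to 0.994 found for the pairs of arrays of the 5 tissues. The 3′ over 5′ log2 signal, a sign of RNA degradation, was 0.23 in the yogurt and 0.13 in the control colon for Gapdh, and 1.01 and 0.93 for actin.

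Most genes had nearly the same level in both pools. The median ratio was -0.01, and the lowest and the highest 2.5% of the measured genes lay below -0.31 and above 0.37. A ratio above 0 was found for 45.3% of measured genes and one below 0 for 54.7%, and these shares are the background for every list described below. Against this, 44 genes (0.356% of those measured) were at least 2-fold higher in the yogurt pool and 2 (0.0162%) at least 2-fold lower. At 1.5-fold, 117 genes (0.946%) were higher and 11 (0.0889%) lower. Of the 44 genes, 18 were not above background in the control pool. Where a gene had several probe sets above the floor, as 14 of the 44 did, the lowest of them was still at least 1.5-fold higher for 10.

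**Figure D1:**
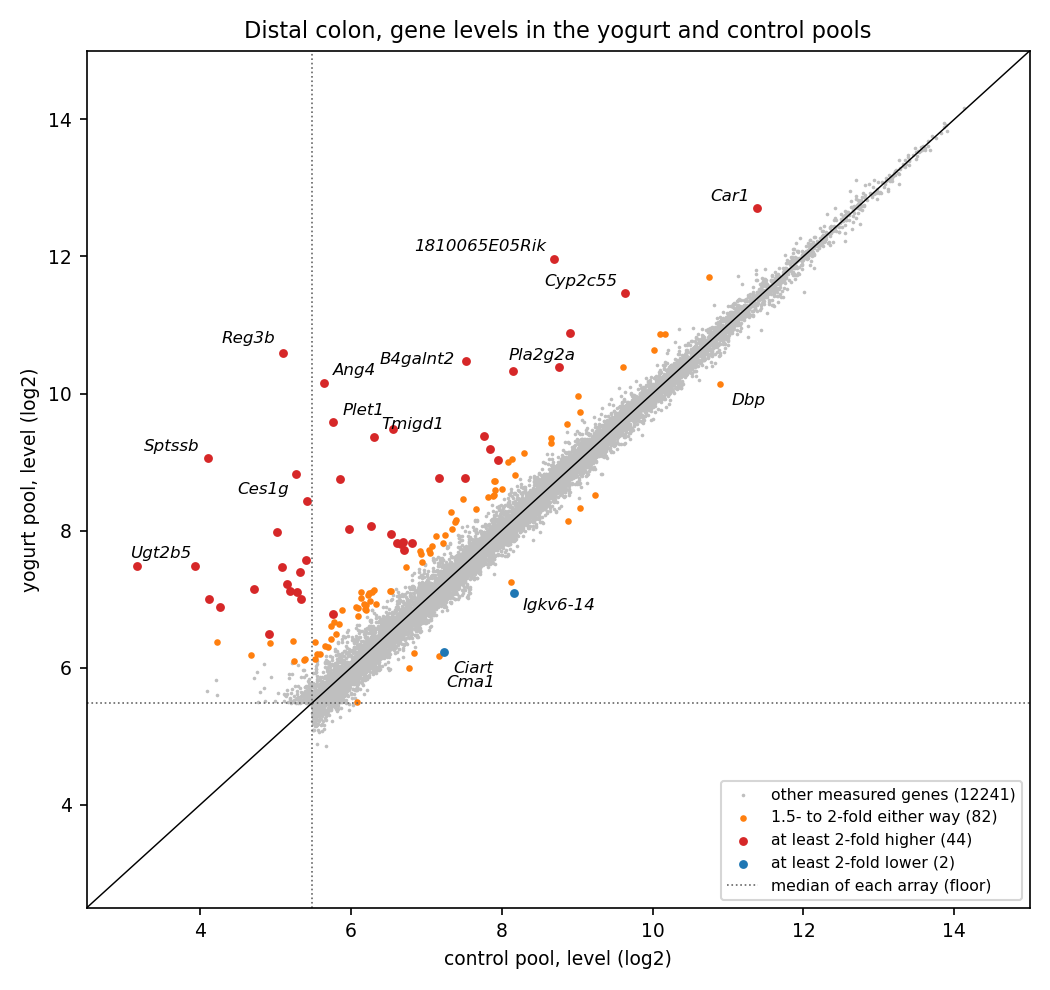
Level of each measured gene in the control pool (x, log2) and in the yogurt pool (y, log2) of the distal colon, 1 array each, with the line of equal levels and, dotted, the floor of each array. The 44 genes at least 2-fold higher lie far above the line, from the dimmest levels up to Car1 at 12.71, while 2 lie as far below it.

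Secreted antibacterial proteins had the largest ratios. Reg3b and Reg3g encode C-type lectins that bind bacterial cell walls, and Ang4 encodes a ribonuclease with microbicidal activity. Reg3b stood at 10.59 in the yogurt pool and at 5.10, below the floor, in the control pool, at least 34.4-fold higher. Reg3g stood at 7.98 and 5.02, at least 5.63-fold higher. Both lectin transcripts were above background in the yogurt pool alone, and the second Reg3b probe set gave a ratio of 5.56. The difference was not confined to the colon. In jejunum Reg3b and Reg3g had ratios of 1.39 and 1.14, and in liver Reg3b had one of 0.97. In ileum, where both were bright, the ratios were 0.01 and 0.10. Ang4 stood at 10.15 against 5.64, a ratio of 4.51, with 4.95 from its other probe set.

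Itln1, a lectin for microbial glycans, stood at 8.76 against 5.86, a ratio of 2.89. Pla2g2a, a phospholipase A2 released into the lumen that breaks up bacterial membranes, stood at 10.33 against 8.15, a ratio of 2.18. Mptx1, a mucosal pentraxin, stood at 11.70 against 10.75, a ratio of 0.95. Pla2g2a and Mptx1 were well above background in the control pool, while Itln1 was close to it. Smaller ratios were those of Ang (0.85), another ribonuclease of the family, and Retnlb (0.58), the resistin-like protein of goblet cells. Lyz1, the lysozyme of Paneth cells, differed by 0.02, Zg16 by 0.08 and Lypd8 by 0.04, and all 3 were among the brighter transcripts, at 12.69 to 13.86 in the control pool. Over the list of antibacterial proteins, 15 of 16 measured members were higher, with a median of 0.38 against -0.01 for all measured genes. That median ranged from 0.18, with both arrays above the floor, to 0.58, without probe sets ending in x_at or s_at.

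The promoter windows of Reg3b and Reg3g are shown because both of these neighbouring lectin genes were above background in the yogurt pool alone. Each runs from 250 bases before to 50 after the annotated start, on the strand of the gene, from RefSeq for GRCm38.p6. Capitals mark matches to TTCNNNGAA, the palindromic core of a STAT site, which reads the same on both strands. Reg3b lies on the plus strand at chr6:78370635-78370934 and Reg3g on the minus strand at chr6:78468825-78469124.
Reg3b: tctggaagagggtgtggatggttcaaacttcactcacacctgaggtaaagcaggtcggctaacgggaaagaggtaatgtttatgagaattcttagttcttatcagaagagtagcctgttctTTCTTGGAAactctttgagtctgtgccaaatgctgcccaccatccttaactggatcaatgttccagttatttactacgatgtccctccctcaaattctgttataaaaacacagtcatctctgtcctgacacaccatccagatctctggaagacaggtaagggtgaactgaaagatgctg
Reg3g: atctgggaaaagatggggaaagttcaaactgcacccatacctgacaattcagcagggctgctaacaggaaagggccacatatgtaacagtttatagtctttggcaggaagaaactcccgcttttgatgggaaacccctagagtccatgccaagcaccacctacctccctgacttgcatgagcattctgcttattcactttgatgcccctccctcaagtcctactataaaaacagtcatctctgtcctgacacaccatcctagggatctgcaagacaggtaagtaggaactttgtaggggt
The windows had 207 identical bases in 304 aligned columns, or 68.1%. Reg3b had 1 match, beginning at position -129 relative to the start, and these letters do not occur in the Reg3g window. Among the antibacterial genes 3 of 13 with a window in the table had a match (Reg3b, Ang4 and Pigr), or 23.1%, against 9.55% of 27025 genes. A match describes the letters of the window and no more.

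Enzymes and carriers of absorptive cells formed the next group. Ces1g, a carboxylesterase that cleaves lipid and drug esters, stood at 8.83 against 5.28, at least 10.1-fold higher. Ces2b had a ratio of 0.80, Ces2e of 0.58 and Ces1f of 0.50. The family as a whole leaned the same way, with 8 of 9 measured members higher and a median of 0.45, and Ces2g the exception at -0.17. Ces1g counted as measured through the yogurt pool alone, so it could not have come out lower.

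Cytochromes P450 and conjugating enzymes varied more widely. Cyp2c65, of a family that oxidises arachidonic acid, stood at 9.49 against 6.56, a ratio of 2.93, and its relative Cyp2c55 at 11.46 against 9.63, a ratio of 1.83. Cyp2e1 stood at 8.03 against 5.98 and Cyp4b1 at 8.06 against 6.27. In ileum Cyp2e1 was higher too, with a ratio of 1.20, while Cyp2c65, Cyp2c55 and Cyp4b1 had ratios of -0.47, -0.98 and -0.16 there. Ugt2b5, a glucuronosyltransferase, stood at 7.49 against 3.17, the latter far below the floor. Of the 30 measured members of this list 20 were higher, 7 of them by at least 1.5-fold, with a median of 0.12. The rest was close to level or lower, as for Ephx1 (-0.15) and Cyp2f2 (-0.20), so the ratios of this list come from a few genes rather than from most of them. The probe set of Cyp2c65 ends in s_at and can bind related transcripts.

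Genes of bile acid handling leaned higher. Slc51a, which with Slc51b forms the basolateral bile acid exporter, stood at 7.15 against 4.72, at least 3.16-fold higher. Slc51b stood at 7.66 against 6.93, and Fabp6, the ileal bile acid binding protein, at 8.05 against 7.47. The nuclear bile acid receptor Nr1h4 had a ratio of 0.24. Of 9 members on the array 6 were measured, and all 6 were higher, with a median of 0.41. Slc51a counted as measured through the yogurt pool alone, so it could not have come out lower. Fgf15, the hormone made in response to bile acids, was not above background in either pool.

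Brush border genes were not shifted as a group. Tmigd1, an adhesion protein of the epithelium, stood at 9.37 against 6.30, a ratio of 3.07. Alpi, the intestinal alkaline phosphatase, stood at 7.48 against 5.09, at least 3.97-fold higher, and the chloride channel regulator Clca4a at 9.96 against 9.01. Clca4b stood at 6.37 against 4.22, at least 1.85-fold higher. Only these 4 genes reached 1.5-fold in the list, in which 13 of 20 members were higher with a median of 0.06. Fabp2, the intestinal fatty acid binding protein, stood at 10.39 against 8.76, a ratio of 1.63, whereas the sugar and lipid absorption list had 6 of 17 members higher and a median of -0.06. In it the sterol exporter Abcg5 had a ratio of -0.44. Acaa1b, a peroxisomal thiolase, stood at 7.48 against 3.93, at least 3.99-fold higher, and 22 of 28 genes of fatty acid oxidation were higher, with a median of 0.11. Cholesterol synthesis leaned the other way, with 17 of 20 genes lower and a median of -0.08.

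Colonocyte genes that are bright in the healthy colon were part of the difference. Car1, the carbonic anhydrase of colonocytes, stood at 12.71 against 11.39, a ratio of 1.32. Car8, a relative without enzyme activity, stood at 8.77 against 7.17, and Car12 at 7.47 against 6.73. Car2 was level at -0.02. Of the 10 measured carbonic anhydrases 7 were higher, 4 by at least 1.5-fold, with a median of 0.38, although Car3 is also a fat cell gene. Among 24 colonocyte markers 17 were higher, with a median of 0.11. Emp1 had a ratio of 0.79, and Aqp8, a water channel of surface colonocytes, one of -0.21.

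Ion transport did not move as a block. Slc9a3, the apical sodium-hydrogen exchanger, stood at 7.84 against 6.69, a ratio of 1.15. The water channel Aqp4 stood at 10.87 against 10.16 and the chloride channel Cftr at 9.66 against 9.23. Lower were the bicarbonate carrier Slc4a4 at 10.20 against 10.61 and Scnn1g, a subunit of the epithelial sodium channel, with a ratio of -0.35. In all, 11 of 30 members were higher, with a median of -0.03. Tight junction genes split evenly, 10 of 20 on each side, with Cldn15 highest at 0.59 and Cldn4 lowest at -0.56.

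Glycan-building enzymes and mucus genes leaned higher. B4galnt2, which adds the N-acetylgalactosamine of the Sda blood group glycan in the gut, stood at 10.48 against 7.52, a ratio of 2.95. Its probe sets did not give 1 value, since those above the floor ranged from 0.25 to 2.95. B4galnt1 had a ratio of 0.87, and C1galt1, which builds the core of mucin O-glycans, one of 0.53. The list had 22 of 27 members higher and a median of 0.20. Muc2, the main gel-forming mucin, stood at 13.12 against 12.69, and 16 of 18 goblet cell genes were higher with a median of 0.14. Spdef, a transcription factor of goblet cells, had a ratio of 0.31 and Clca1 one of 0.34. Muc4, a membrane mucin, stood at 6.85 against 5.88.

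Other genes of the 44 belong to single functions. Plet1, a surface protein of epithelial cells, stood at 9.58 against 5.77, a ratio of 3.81, but its probe sets ranged from -0.12 to 3.81. Sptssb, a small subunit of serine palmitoyltransferase, which starts sphingolipid synthesis, stood at 9.06 against 4.10, at least 11.9-fold higher, with 1.07 (log2) from its other probe set. For these genes the height of the ratio depends on which probe set is read. Only 1 of 28 sphingolipid genes was at least 1.5-fold higher, Sptssb itself, and the median of that list was 0.04.

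1810065E05Rik, a transcript with a RIKEN name, stood at 11.96 against 8.69, a ratio of 3.27 at a level among the brighter genes. Isx, an intestine-specific homeobox factor, stood at 7.40 against 5.33, at least 3.76-fold higher. Prkg2, a cGMP-dependent protein kinase, stood at 7.11 against 5.29, at least 3.08-fold higher. Both regulators were above background only in the yogurt pool. Vnn1, a pantetheinase, was at least 3.33-fold higher by its main probe set and had a ratio of 0.38 by its other one. Slc3a1, a subunit of the cystine carrier, was at least 3.11-fold higher, and Nts, the gut peptide neurotensin, at least 2.87-fold.

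Ratios between 1.01 and 1.42 were found for Ddah1, which breaks down a nitric oxide synthase inhibitor, the glycosyltransferase Mgat4c, the dipeptidase Dpep1, the scramblase Plscr2, the class Ib antigen H2-T3, the matrix protein Ccn3, the G protein regulator Rgs17, the steroid dehydrogenase Hsd3b3 and the surface protein Cd177. BC018473 was at least 2.64-fold higher, and it was also at least 1.5-fold higher in the other 4 tissues. Its ratio was 3.31 in spleen, while in jejunum, ileum and liver the control was at the floor and the ratios of 1.22, 1.55 and 0.79 are lower bounds. The enteroendocrine list as a whole was level, with 11 of 22 members higher. In it Tph1, the enzyme of serotonin synthesis, had a ratio of 0.81 and the peptide hormone Pyy one of -0.19.

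Many of the genes higher in the yogurt colon are bright in the small intestine. In the control mice the ileum exceeded the distal colon by at least 2-fold for 27 of the 44 genes (61.4%), against 4.33% of all measured genes, and was at least 2-fold below it for 3. The control colon array enters both the choice of the 44 genes and this comparison, so part of the excess over 4.33% is built in. For 24 of the 27 genes the yogurt colon was still below the control ileum. Over all 44 genes the yogurt colon was above the control ileum for 20. Reg3b, for example, stood at 13.90 in the control ileum, Itln1 at 12.80 and Tmigd1 at 13.18. Cyp2c55, Car1 and Ccn3 were the 3 genes brighter in the colon.

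**Figure D2:**
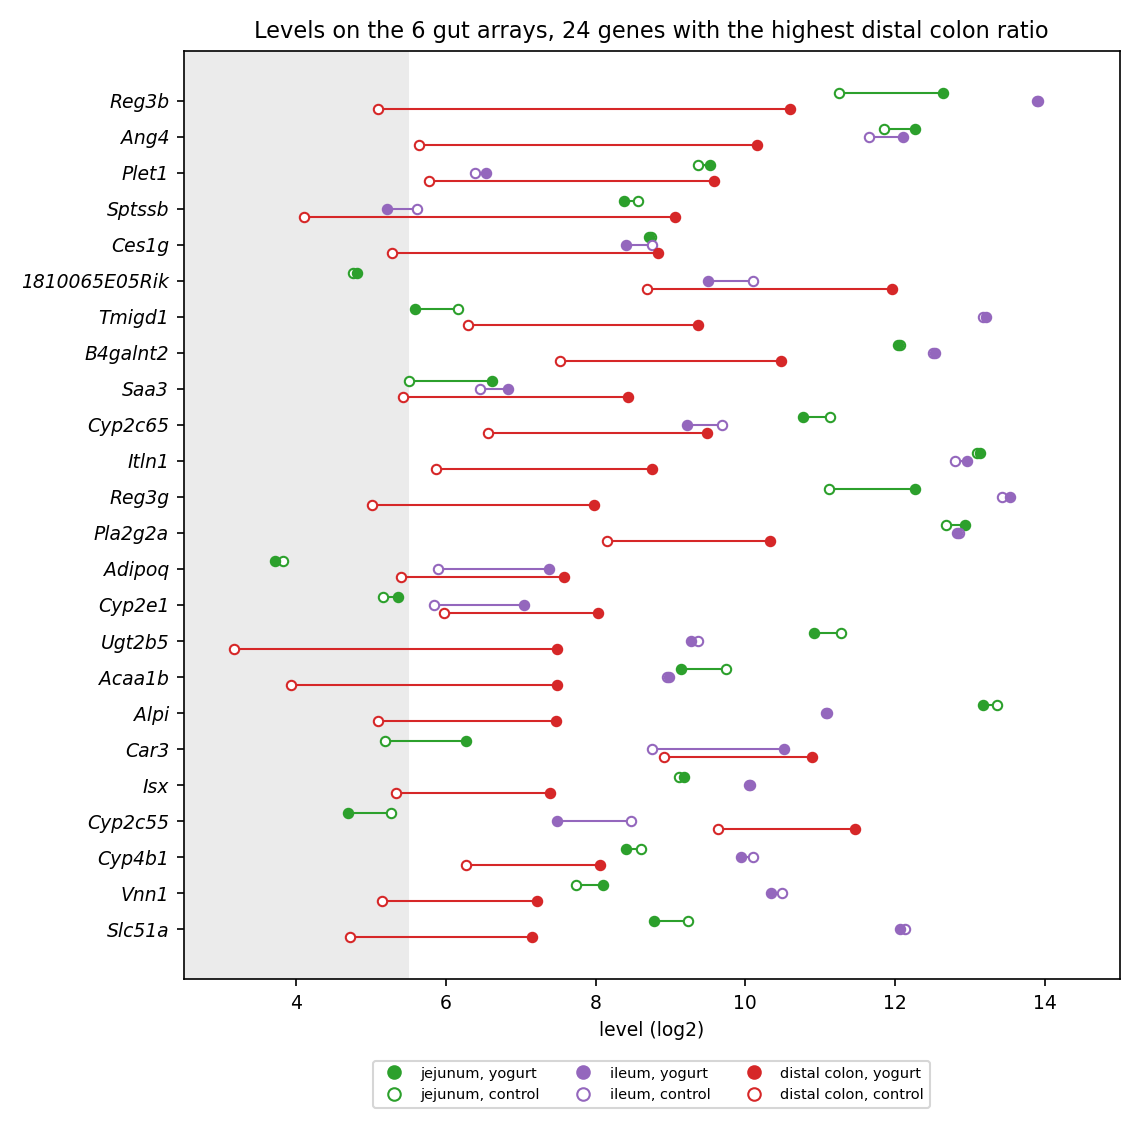
Level (x, log2) of the 24 genes with the highest distal colon ratio on the 6 gut arrays, with open circles for control and filled circles for yogurt pools; the grey band lies below the highest floor of 5.49. The red colon pairs are far apart, while most jejunum and ileum pairs of the same gene lie close together and to the right.

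Grouping all measured genes by control ileum minus control colon level gave median colon ratios of -0.09 for the 46 genes more than 3 log2 units dimmer in the ileum, -0.08 for 651 that were 1 to 3 units dimmer, -0.01 for 11136 in between, 0.07 for 451 that were 1 to 3 units brighter, and 0.41 for 85 more than 3 units brighter. In the last class 38.8% of the genes were at least 1.5-fold higher in the yogurt colon. The diet ratios of those 85 genes in the jejunum and in the ileum had medians of -0.12 and -0.08. The control colon array enters both the classes and the ratio, which pulls them the same way. With the mean of both colon arrays in the classes, chosen after seeing the data, the top class had 72 genes and a median of 0.34. With the yogurt colon array, which pulls the other way, it had 63 genes and a median of 0.23. At least 1.5-fold higher were then 28.6% of this top class and 6.85% of the class 1 to 3 units brighter in the ileum. The share was 0.339% in between, 4.27% for genes 1 to 3 units dimmer and 10% for those more than 3 units dimmer. In that grouping both ends thus held larger shares than the middle.

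Defining markers of the small intestine were checked beside this. Among 28 listed enterocyte genes on the array 17 were measured, of which 12 were higher, with a median of 0.13. The apolipoproteins Apoa1, Apoa4 and Apoc3, lactase (Lct), the fatty acid binding protein Fabp1, the glucose carrier Slc2a2 and Gata4 were not above background in either colon pool. The signals of the whole enterocyte list summed on the linear scale, values at the floor included, to 6504 in the yogurt and 5186 in the control pool. Of 11 Paneth cell genes on the array 9 of 10 measured were higher, with a median of 0.37 and sums of 19949 and 15969, and the alpha-defensin Defa3 was not above background in either pool. Alpi of the enterocyte list and Reg3g of the Paneth list were above background in the yogurt pool alone, so neither could have come out lower. The lysozyme gene Lyz1 was bright in both colon pools and differed by 0.02, as given above. Without probe sets ending in x_at or s_at, 9 Paneth cell genes were measured, with a median of 0.41.

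Transcription factors that mark position along the gut differed in both directions. Cdx2, the intestinal homeobox factor, stood at 9.04 against 8.13, a ratio of 0.91 by one probe set and 0.41 by the other. Hoxb6 was not above background in the control pool and was at least 1.48-fold higher. Hoxb3, outside the list and named after its values were seen, stood at 7.13 against 6.31, a ratio of 0.82 by one probe set, and was level by the other. The posterior factors Hoxa13, Hoxb13 and Hoxd13 were lower, at -0.31, -0.25 and -0.24. The list as a whole was level, with 10 of 19 measured members higher and a median of 0.04. The part of the level of dissection along the colon in these results was not tested.

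Immune genes showed opposite leanings. Interferon-stimulated genes were higher in 22 of 24 cases, with a median of 0.23. Cxcl9, a chemokine that draws T cells, stood at 7.09 against 6.25, the GTPase Iigp1 at 8.03 against 7.34, and Ifit1 at 7.94 against 7.26. All 3 were above the floor in both pools, with ratios from 0.68 to 0.84. The medians of this list in the other tissues were 0.13 in jejunum, -0.09 in spleen, 0.06 in liver and close to 0 in ileum.

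Saa3, an acute phase apolipoprotein, stood at 8.43 against 5.43, at least 7.70-fold higher. Its ratios were 1.10 in jejunum, 0.37 in ileum, 1.13 in liver and 1.29 in spleen, so the colon had the largest of several. Other acute phase genes of the colon did not follow, with Saa1 at 0.04 and Saa2 at -0.13 and 4 of 9 measured members higher. S100a8 and S100a9, the subunits of neutrophil calprotectin, were at least 2.85-fold and at least 2.01-fold higher. Of 18 neutrophil genes on the array 7 were measured, and Mpo, Ltf, Camp, Ngp and Cxcr2 were not above background in either pool. The summed linear signal of the neutrophil list was 1002 in the yogurt and 847 in the control pool.

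B lymphocyte genes leaned lower. Ighm, the heavy chain of IgM, stood at 11.49 against 12.01, and its probe sets ranged from -2.15 to -0.45. Of 18 measured B cell genes 16 were lower, with a median of -0.14 and summed signals of 7026 and 8690. Plasma cell genes did not follow as a group, since 7 of 16 were higher, among them Jchain at 0.05 and Xbp1 at 0.04. Single light chain segments differed in both directions. Igkv6-14 stood at 7.09 against 8.16, the lowest ratio of all at -1.07, and Igkv6-20, named after its values were seen, at 8.15 against 7.40, a ratio of 0.75. Cma1, the chymase of mast cells, stood at 6.18 against 7.17, while Cpa3, Mcpt4 and Tpsab1 of the same cells were not above background in either pool.

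Fat cell genes were higher in part. Adipoq, which encodes the hormone adiponectin, stood at 7.58 against 5.40, at least 4.26-fold higher. Car3 stood at 10.89 against 8.91, a ratio of 1.98, and the lipase Lpl at 9.39 against 7.77, a ratio of 1.62. Retn and Fabp4 had ratios of 0.73 and 0.62. These 5 genes were also higher in the yogurt ileum, with ratios of 1.48, 1.77, 0.51, 0.82 and 0.67. The other measured members lay between -0.38 and 0.15, and Lep, Cidea and Ucp1 were not above background in either pool. Of 14 measured fat cell genes 10 were higher, with summed signals of 7915 and 5268. The part of attached fat in the ratios of Car3 and Lpl was not tested.

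Genes of cell division were higher without exception. The mitosis list, made of cyclins, spindle and kinetochore genes that peak as cells divide, was higher in all 30 measured members, with a median of 0.37, against 45.3% of all measured genes. Ccna2, cyclin A2, stood at 9.00 against 8.08, a ratio of 0.92, with 0.40 from its lowest probe set. The checkpoint kinases Bub1 and Ttk stood at 7.12 against 6.54 and at 6.53 against 5.95. The other members lay between 0.11 for Kif23 and 0.53 for Aurkb, with Mki67, the common proliferation marker, at 0.37, Top2a at 0.37 and Cdk1 at 0.41. Only Ccna2 and Bub1 reached 1.5-fold, so the ratios were of 1 direction but not large.

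Genes of DNA replication, which peak earlier in the cell cycle, were not shifted in the same way. Of 29 measured members 18 were higher and the median was 0.01. Ccne2, a cyclin of S phase entry, had the highest ratio at 0.45 and Gins2 the lowest at -0.16. Mcm3 (-0.10) and Mcm6 (-0.11), subunits of the replicative helicase, were lower. In the other tissues the mitosis median was 0.01 in jejunum, ileum and spleen and 0.34 in liver, where that of replication was 0.15. Stem cell and Wnt genes of the colon were level, with 14 of 24 higher and Lgr5 at 0.13.

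**Figure D3:**
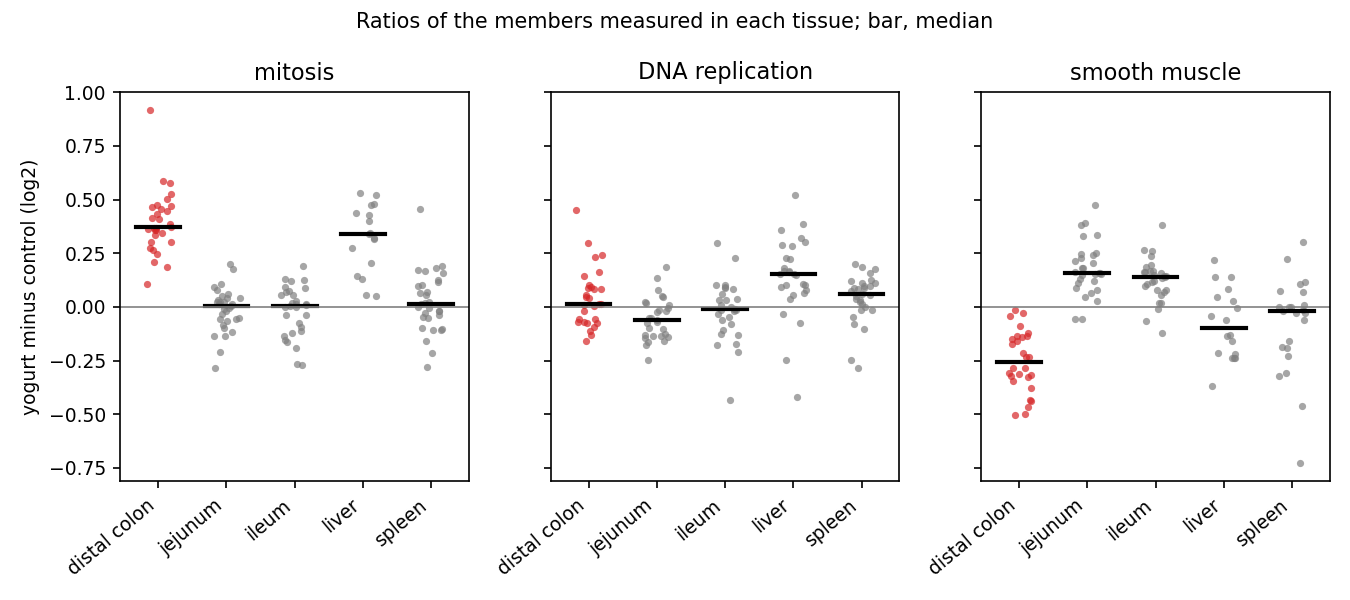
Diet ratio (y, log2) of each member of 3 lists measured in distal colon (red) and in the other tissues (grey), with the median as a bar. All mitosis genes lie above 0 in the colon with a median of 0.37, replication genes spread around 0, and all smooth muscle genes lie below 0.

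Promoters of the mitosis genes are shown because the list moved together. Capitals mark TTTGAA or its reverse complement, the core of the cell cycle homology region (CHR), an element known from genes that peak in late cell cycle. Windows are again from RefSeq for GRCm38.p6, on the strand of the gene. Cdc20, the activator of the anaphase-promoting complex, lies on the minus strand at chr4:118437294-118437593, and Plk1, a mitotic kinase, on the plus strand at chr7:122159185-122159484.
Cdc20: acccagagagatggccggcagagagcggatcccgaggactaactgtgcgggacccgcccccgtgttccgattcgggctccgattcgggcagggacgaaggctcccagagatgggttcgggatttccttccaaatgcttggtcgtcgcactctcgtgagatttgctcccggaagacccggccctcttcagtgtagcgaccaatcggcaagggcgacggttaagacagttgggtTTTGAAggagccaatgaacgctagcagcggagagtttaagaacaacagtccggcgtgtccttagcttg
Plk1: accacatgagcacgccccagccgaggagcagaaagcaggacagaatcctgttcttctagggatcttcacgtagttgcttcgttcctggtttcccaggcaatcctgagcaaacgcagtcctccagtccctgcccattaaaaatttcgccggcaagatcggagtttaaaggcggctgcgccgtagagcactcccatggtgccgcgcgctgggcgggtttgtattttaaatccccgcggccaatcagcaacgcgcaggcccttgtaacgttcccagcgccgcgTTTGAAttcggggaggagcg
The match in Cdc20 begins at position -18 relative to the start and that in Plk1 at position 30. Of the 2 members that reached 1.5-fold, Bub1 had no CHR match in its window, and Ccna2 had no window to search. A match was found for 19 of the 25 mitosis genes with a window (76.0%), for 3 of 24 replication genes (12.5%) and for 20.2% of 27025 genes. The CCAAT box, spelled CCAAT and searched on both strands, was found for 21 of the 25 (84.0%), for 14 of 24 replication genes (58.3%) and for 41.1% of all genes. In 1 of 26 mitosis windows a match of each kind shared a base. The matches were counted without regard to the measured ratios.

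Muscle genes of the gut wall were lower throughout. All 28 measured smooth muscle genes were lower, with a median of -0.26, against 54.7% of all measured genes. Csrp1, a muscle LIM protein, stood at 10.93 against 11.43 and Smtn, smoothelin, at 9.40 against 9.86. Ppp1r14a, an inhibitor of myosin phosphatase, had a ratio of -0.50 too. The most abundant contractile genes differed less, with Tagln at -0.28, Myh11 at -0.23, Actg2 at -0.17 and Acta2 at -0.13. The summed linear signal of the list was 60375 in the yogurt and 69805 in the control pool. In jejunum and ileum the medians were 0.16 and 0.14, on the other side of 0.

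Connective tissue and nerve markers leaned the same way as muscle. Of 41 fibroblast and matrix genes 29 were lower, with a median of -0.10, and Fn1, fibronectin, had a ratio of -0.30. Lox, which cross-links collagen, was higher at 0.38, and Col1a1 was at 0.32. Of 22 enteric neuron genes 18 were lower, with a median of -0.06. Other cells of the wall were level. Genes of interstitial cells of Cajal were higher in 6 of 12 cases and endothelial genes in 15 of 27, with medians of 0.0005 and 0.02. Signalling genes of the BMP, hedgehog and Notch pathways had 20 of 26 members lower, with Gli1, a hedgehog target, at -0.34 and Id1, a BMP target, at -0.32. The part of the share of muscle wall in the epithelial ratios was not tested.

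**Figure D4:**
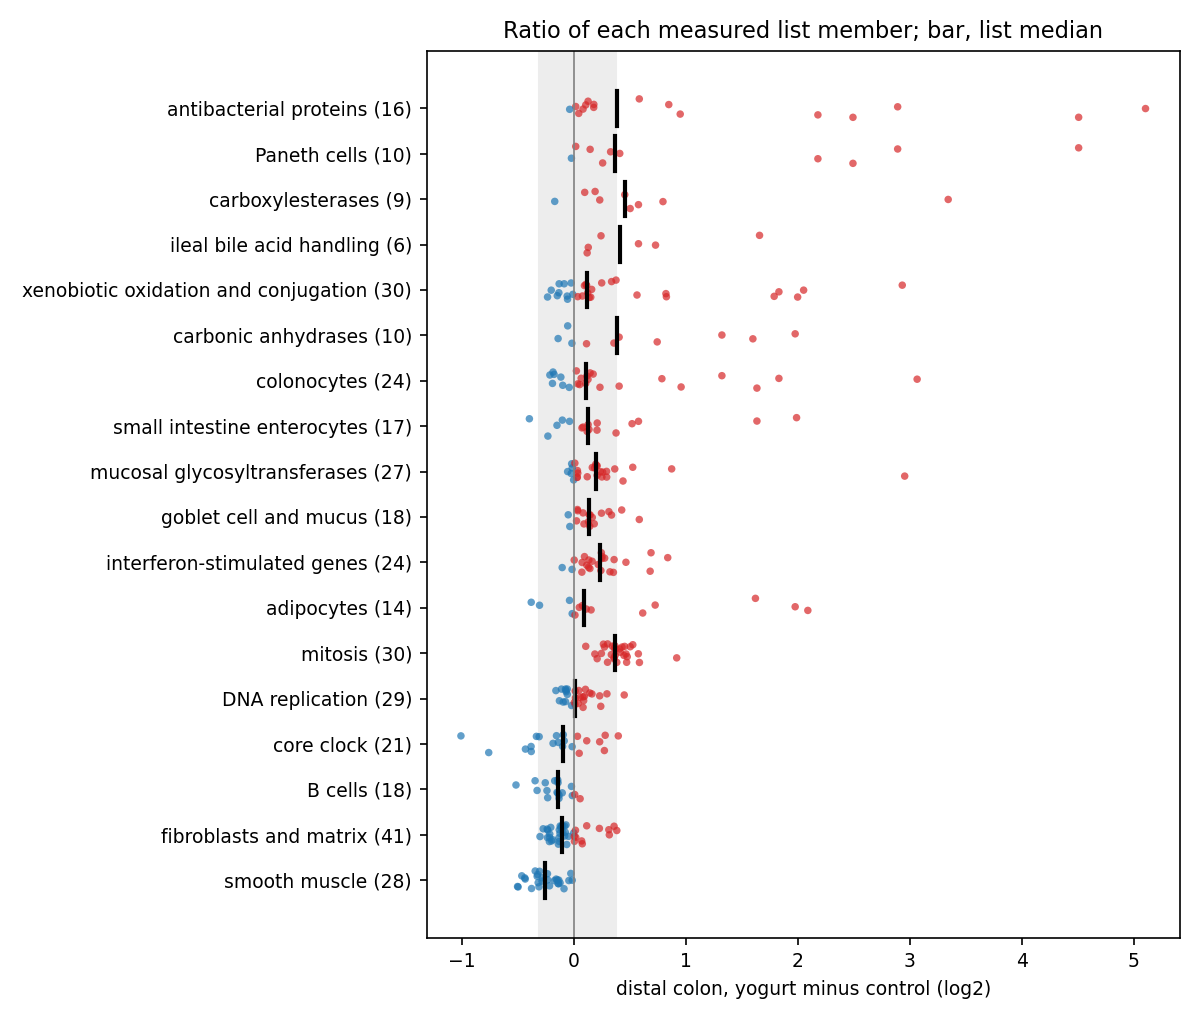
Ratio (x, log2) of every measured member of 18 gene lists in the distal colon, red above and blue below 0, with the list median as a black bar, the number measured in brackets and, in grey, the range from -0.31 to 0.37. A few members far to the right set the antibacterial, xenobiotic and colonocyte lists apart, while the mitosis and smooth muscle lists lie wholly on 1 side of 0.

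Clock genes differed in opposite directions. The circadian clock is a loop in which Arntl, Clock and Npas2 drive their own repressors through E-boxes, and Ciart, Dbp and Per1 are among the genes so driven. Ciart stood at 6.23 against 7.24, a ratio of -1.01, and Dbp at 10.13 against 10.89, a ratio of -0.76. Per1 had a ratio of -0.43, Tef of -0.38, Nr1d1 of -0.38 and Hlf of -0.33. The driving side was higher, Arntl at 7.61 against 7.21, Npas2 at 7.07 against 6.79 and Clock at 9.56 against 9.29. Of 21 measured core clock genes 14 were lower, with a median of -0.10. Ciart was also lower in jejunum (-0.35), ileum (-0.79) and liver (-1.03). Dbp was lower in liver (-0.86) and spleen (-0.41) but close to level in jejunum (-0.08) and ileum (0.08). Arntl had a ratio of 0.67 in liver.

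The promoter of Ciart, one of the 2 genes at least 2-fold lower, is shown with the E-box CACGTG, which reads the same on both strands, in capitals. It lies on the minus strand at chr3:95882179-95882478 in GRCm38.p6.
Ciart: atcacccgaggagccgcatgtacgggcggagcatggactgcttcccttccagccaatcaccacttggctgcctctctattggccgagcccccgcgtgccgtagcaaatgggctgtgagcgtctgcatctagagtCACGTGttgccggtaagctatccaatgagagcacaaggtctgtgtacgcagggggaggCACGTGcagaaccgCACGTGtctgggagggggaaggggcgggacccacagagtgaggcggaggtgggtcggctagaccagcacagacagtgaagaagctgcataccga
It holds 3 matches, which begin at positions -116, -58 and -44 relative to the start. The window of Dbp, searched in the same way, held no match. Of 18 clock genes with a window 4 had a match (Per1, Cry1, Tef and Ciart), or 22.2%, against 8.09% of 27025 genes. The D-box TTATGTAA, searched on both strands, was found for 2 of the 18 (Per3 and Timeless), or 11.1%, against 1.11% of all genes.

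The other genes at least 1.5-fold lower have no common function. Anxa8, an annexin, stood at 7.25 against 8.12 and Cyp11a1, the first enzyme of steroid synthesis, had a ratio of -0.77. Cirbp, the cold-inducible RNA-binding protein, stood at 8.52 against 9.24. It was lower in all 5 tissues, with -0.43 in jejunum, -0.66 in ileum, -0.69 in liver and -1.16 in spleen. Mid1, a ubiquitin ligase named here after its values were seen, was also lower in all 5, with -0.62 in colon and -1.33 in jejunum. Ifi27l2b, an interferon-inducible gene outside the list given above, had a ratio of -0.74. It too was lower in all 5 tissues, with -1.09 in jejunum, -0.58 in ileum, -0.42 in liver and -0.19 in spleen. Lbh had a ratio of -0.71, though another Lbh probe set gave 0.18. The last of the 11, Mettl24, had a ratio of -0.59 and was likewise named after its values were seen. Among bright genes short of 1.5-fold, Rbm47 (-0.55), Ahnak2 (-0.53) and Iyd (-0.53) followed Cldn4, and another Rbm47 probe set gave 0.10.

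Several functions of the colon were close to level. Genes of the respiratory chain had a median of 0.02, with 22 of 36 higher, and cytosolic ribosomal proteins one of -0.02. Uptake and use of short chain fatty acids, the main fuel of colonocytes, had 5 of 10 members on each side and a median of 0.01, with the carrier Slc16a1 at 0.08 and the receptor Ffar2 at 0.50. The unfolded protein response had a median of 0.06, and genes of bacterial sensing one of 0.01. Cell death genes were higher in 19 of 24 cases, with a median of 0.11 and none at 1.5-fold.

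Whether the colon ratio differed from that of the other tissues was tested with limma over all 10 arrays, with tissue, diet and the diet effect in colon as terms and 3 residual degrees of freedom. The spread in this test is that of a gene's diet ratio among the other 4 tissues and not that between mice. Of 11954 genes tested, 29 (0.243%) had a colon ratio at least 1.5-fold above the mean of the others with an adjusted p (Benjamini-Hochberg) under 0.05, and 0 (0%) had one below it. Without adjustment 459 genes above and 178 below had p under 0.05. Genes near the floor in the other tissues show almost no spread there, so their errors and p-values can be too small.

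Cyp4b1 was called on the fullest data, with a colon ratio of 1.79 against -0.20 in jejunum, -0.16 in ileum, -0.11 in liver and -0.17 in spleen. The difference was 1.95 (SE 0.10, adjusted p = 0.000117, limma), and the colon was above each of the 4 tissues. Only 4 of the 29 genes were measured in all 5 tissues. The others had a ratio close to 0 by construction in at least 1 tissue, where both arrays were at the floor. Restricting the test to the 10389 genes measured everywhere left 1 call, Cyp4b1, and leaving out the ileum left 19. Of the 44 genes at least 2-fold higher in colon, 23 were called, 16 were tested and not called, and 5 were measured in too few other tissues to be tested. The colon ratio that selected the 44 genes also enters the limma difference, so these counts are not independent support. Among those not called, Saa3, S100a8, Car3 and BC018473 were also higher in other tissues, and Reg3g was higher in jejunum (1.14). Cyp2c55 and Car1, in contrast, were lower in ileum, with ratios of -0.98 and -1.27.

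**Figure D5:**
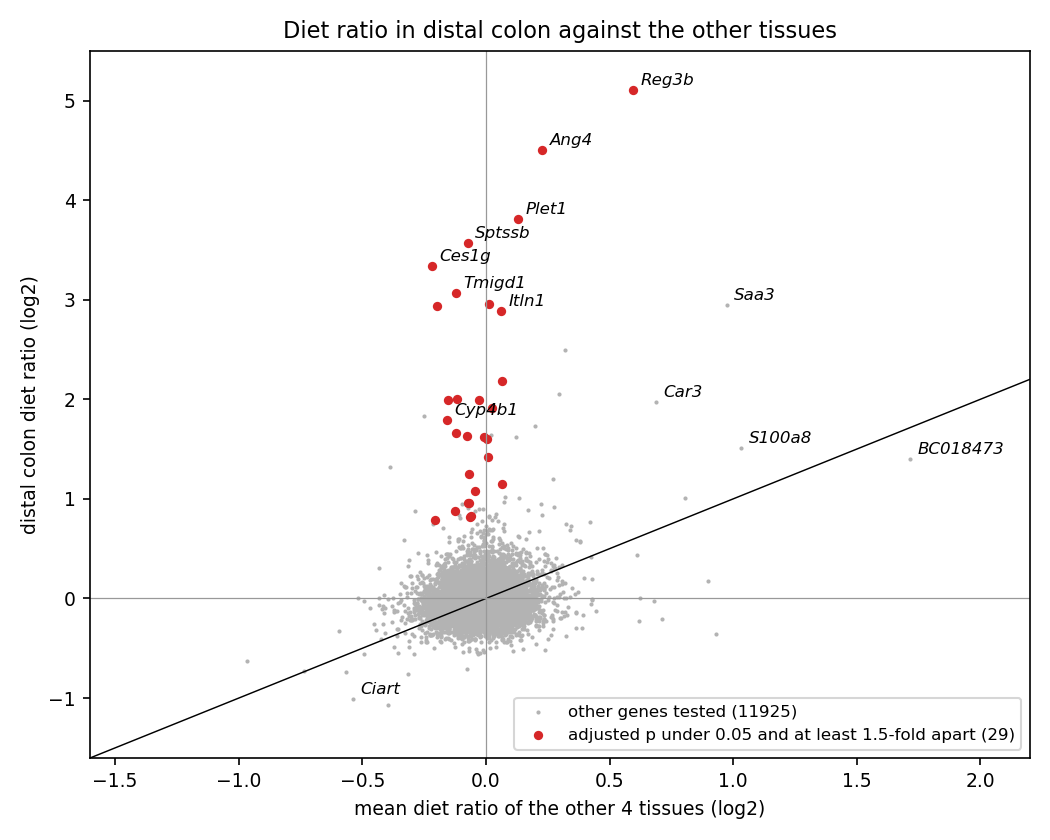
Diet ratio in distal colon (y, log2) against the mean diet ratio of jejunum, ileum, liver and spleen (x, log2) for 11954 genes, with the line of equal ratios. The 29 called genes (red) lie high above the line near 0 on the x axis, while Saa3, Car3, S100a8 and BC018473 lie to the right.

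The same 44 genes in the other tissues gave a varied picture. At least 1.5-fold higher were 7 of 36 measured in jejunum, 6 of 43 in ileum, 6 of 22 in liver and 5 of 12 in spleen. Of all measured genes, 0.635% in jejunum, 0.211% in ileum, 0.501% in liver and 0.631% in spleen were that much higher. In ileum 4 of the 44 were at least 1.5-fold lower, and in jejunum 1. Car1 was one of the 4, with 7.54 against 8.81 in ileum, opposite to the colon. In all, 32 of the 44 reached 1.5-fold higher in no other tissue, but only 4 of these 32 were measured in all 5 tissues. Of the 11 lower genes, 2 of 7 measured in jejunum, 3 of 7 in ileum, 4 of 6 in liver and 3 of 7 in spleen were at least 1.5-fold lower there too. The shares of all measured genes that much lower were 0.244% in jejunum, 0.293% in ileum, 0.337% in liver and 1.09% in spleen.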

How the data were processed

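Log2 expression values per probe set were used as the authors deposited them. Their precision is limited by the number of arrays. MAS5 and affy are named in the submitters' processing notes. The summarisation and scaling steps are not given in the sources consulted, and nothing was rescaled. Of 45101 probe sets, 64 array controls were left out. A single gene symbol was held by 34945 (34741 matched by gene number to RefSeq for GRCm38.p6), 932 had several and 9160 were unnamed here. Each gene was represented by the probe set brightest on average over the 10 arrays. Those with the endings x_at and s_at may cross-hybridise. Values under the 50th percentile of an array were raised to it. Ratios were counted at 2-fold and 1.5-fold, and 74 gene lists were summarised by counts and medians, with older symbols updated where 1 current gene matched. Named were all genes at least 2-fold apart, up to 4 leading members of each list and further members of lists described in depth, the leading limma calls and the 12 lowest ratios among bright genes. The colon was compared with the other tissues in limma 3.58.1 (R 4.3.3; lmFit and eBayes with trend, Benjamini-Hochberg adjustment), tested on simulated data. Promoter motifs were searched and windows aligned with Python 3.11.15 and Biopython 1.88. Members and lists were chosen with earlier results of these data known. Proteins were not analysed here.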

Additional observations from a re-analysis of the deposited data

Results flagged for a closer look

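In limma, 29 genes had a diet ratio in distal colon that differed from the mean diet ratio of the other 4 tissues (adjusted p from 1.59e-05 to 0.0449); values below are colon minus that mean on the log2 scale. Among antibacterial genes the difference was 4.51 for Reg3b, 4.28 for Ang4, 2.83 for Itln1 and 2.11 for Pla2g2a. Among epithelial surface and glycan genes it was 3.68 for Plet1, 3.19 for Tmigd1, 2.94 for B4galnt2, 2.02 for Alpi, 1.32 for Dpep1, 1.03 for Clca4a and 1.00 for B4galnt1. Genes of lipid and drug metabolism included Sptssb at 3.64, Ces1g at 3.56, Cyp2c65 at 3.13, Acaa1b at 2.15, Ugt2b5 at 2.11, Cyp4b1 at 1.95, Cyp2d26 at 0.89 and Cyp4f14 at 0.89. Carriers included Slc51a at 1.78, Fabp2 at 1.71 and Slc9a3 at 1.08. The others were Isx at 1.89, Prkg2 at 1.63, Car8 at 1.59, Ddah1 at 1.41, Ccn3 at 1.13, 2210407C18Rik at 1.04 and Arg2 at 0.99. For Reg3b, Sptssb, Ces1g, Acaa1b, Ugt2b5, Alpi, Slc51a, Isx and Prkg2 the control colon was at the floor, so the colon ratio behind the value is a lower bound. Only 4 of the 29 genes were measured in all 5 tissues. The others were at the floor on both arrays of at least 1 other tissue. There the ratio is close to 0 by construction, so the errors and p-values of these genes can be too small. Among genes measured in all 5 tissues 1 call was left, Cyp4b1. All 29 were higher in colon relative to the other tissues, and the test measures the spread among tissues of the same mice.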

How the results depend on the processing

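Every value rests on 1 pool and 1 array per diet, so neither the spread between mice nor that between arrays was measured, and ratios of genes near the floor depend most on the settings. Counting only genes above the floor on both arrays gave 26 genes at least 2-fold higher. The genes at least 2-fold lower numbered 1 when the floor was the 65th percentile, 1 with ratios centred on their median and 0 with a pseudocount of 32. With the floor at the 65th percentile 72 genes were at least 1.5-fold higher and 6 lower; here fewer genes, 9804, were measured. Of the 44 genes, 30 were still at least 2-fold higher at that floor, 36 with the pseudocount, 42 with all probe sets averaged and 40 without probe sets ending in x_at or s_at. The limma count of genes with a higher colon ratio was 19 without the ileum and 1 among genes measured in all 5 tissues, and that of genes with a lower colon ratio was 2 against jejunum and ileum alone; the cause was not tested. Of 504 recomputed list medians, 503 moved by less than 0.21, the SD of the ratio over all measured genes, and none reversed among those of at least 0.1 in size; the exception was the cytotoxic list, at 0.41 over 2 genes under the higher floor. For 52 genes, those at least 2-fold apart and the lowest bright genes short of 1.5-fold, no direction changed in 341 recomputed ratios. Of these ratios, 72 moved by more than that SD. The 52 genes were chosen for large ratios, and the other named genes were not recomputed singly. No adjusted p was computed within the colon.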
